A study of Mus musculus with 4 samples.

Results

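Ribosome biogenesis factors are the nucleolar proteins that transcribe, cut, modify and fold ribosomal RNA (rRNA) before it enters the 40S and 60S subunits, and the set described here was built around the endonuclease gene Las1l. It was a list of 36 genes given by symbol. Las1l was selected on its measured CPM, which were low in both knockout libraries of this same KO against WT contrast, and the other genes were listed by their function. Of the 36, 34 matched a row among the 34615 gene rows of the files, and Noc2l and Tsr1 were not analysed here. All 34 passed the filter on low counts, and the smallest count of any member in any library was 24.

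The RNA came from mammary basal cells of the mouse, which form the outer layer of the epithelium. The KO group had the genotype miR205fl/flmTmGfl/fl cre+, with a floxed gene for the microRNA miR-205, and the WT group had the genotype WTfl/flmTmGfl/fl cre+. Cells of both groups carried the RosamTmG/mTmG reporter, which switches from a red to a green membrane protein after recombination, and both received adenoviral Cre before they were transplanted into SCID-Beige mice, immunodeficient hosts, at an age of 3 weeks. Outgrowths were collected at 8 weeks and pooled. The design gives 40 outgrowths and does not say whether that number holds for each genotype. Green cells with CD24 and high CD49f were then sorted, so the sort selected for the reporter in both groups. There were 2 KO and 2 WT libraries, and nothing states that the libraries of a genotype came from separate pools, so the spread behind the p-values may be technical.

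RNA polymerase I copies the ribosomal DNA into a long precursor that holds the 18S and 28S rRNAs and spacers between them. The small-subunit processome and the small nucleolar ribonucleoproteins (snoRNPs) cut and modify the precursor, and a separate chain of factors matures the large subunit. The rixosome, with LAS1L as its nuclease, cuts within the internal transcribed spacer 2 (ITS2), in front of 28S rRNA. The pathway is known to be driven by MYC and to follow cell growth.

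Gene counts per library were 60030932 and 47953972 in KO and 53067076 and 57650462 in WT. KO replicate 2 stood apart, with a count in 12679 genes, against 18897 in KO replicate 1 and 18139 and 18027 in the WT libraries, so values are given for each KO library throughout. Levels are CPM, read counts scaled for library size with the trimmed mean of M values (TMM). The 5 basal markers, Krt5, Trp63, Acta2, Itga6 and Myh11, were abundant in each library and summed to 10730 and 8950 CPM in KO and 8617 and 8287 CPM in WT. The summed levels of 6 measured luminal markers were 566.2 and 806.4 CPM in KO and 480.7 and 814.6 CPM in WT, most of it from Krt8, Krt18 and Prlr. Of the 6, 4 had a negative log2 fold change (median -0.52). Both KO libraries were below both WT libraries in 2 of the 6, Kit and Elf5, against 19.2% of all tested genes. Kit had 6.905 and 1.438 CPM in KO and 15.62 and 27.6 CPM in WT. Elf5 was low in each library, with 1.496 and 0 CPM in KO and 3.052 and 4.791 CPM in WT. For 5 fibroblast markers the sums were 204.9 and 298.9 CPM in KO and 141.7 and 176.6 CPM in WT. Most of this came from Dcn, with 153.2 and 221.3 CPM in KO and 89.49 and 105.6 CPM in WT. Of the 5 log2 fold changes, 3 were positive and 2 negative (Col1a2 and Col3a1). For 3 endothelial markers the sums were 100.3 and 50.62 CPM in KO and 58.99 and 114.4 CPM in WT. For 4 immune markers they were 76.42 and 317.4 CPM in KO and 62.06 and 144 CPM in WT, most of it from Cd74. Of these 4 log2 fold changes, 3 were positive and 1 negative (Csf1r). Cd3e, a T cell marker, had 0 counts in KO replicate 1. The part of these other cell types in the results was not tested. Mir205 had 0 counts in each library, where 3 counts would be 0.04773 to 0.07191 CPM, and gave no check of the genotype labels.

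The microRNA floxed in KO cells is shown with its seed, bases 2 to 8, in capitals, because the seed decides which messenger RNAs it can pair with. It lies at chr1:193507503-193507524 on the minus strand (RefSeq, GRCm38.p6). The letters that pair with the seed are ATGAAGG, searched on the messenger RNA strand. The members with these letters in their longest annotated 3′ untranslated region (UTR) are shown with the match in capitals.
mmu-miR-205-5p: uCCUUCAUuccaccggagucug
Wdr43: gacacgttttcATGAAGGaataactaagt
Noc3l: tttctaaaggaATGAAGGttcccccctgg

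They are 2 of 34 members (5.9%), against 1528 of 12635 tested genes with a 3′ UTR (12.1%). In Wdr43, on chromosome 17, the match began at base 478 of a 3′ UTR of 1370 bases and an A followed it, which makes it an 8mer. In Noc3l, on chromosome 19, it began at base 575 of 1417 and was a 7mer-m8. Las1l had no match in its 3′ UTR of 185 bases. A match is a description of the sequence and not a shown binding site.

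Las1l (ENSMUSG00000057421, on chromosome X), which encodes the nuclease that cuts ITS2, had 3607 and 2158 counts in KO and 5816 and 5806 counts in WT. After scaling this was 57.39 and 51.72 CPM in KO and 103.2 and 97.59 CPM in WT. Both KO libraries lay below both WT libraries, at 57.16% and 51.52% of the WT mean. The group means were 54.56 ± 4.01 CPM in KO and 100.4 ± 3.97 CPM in WT (SD, n = 2 each). The log2 fold change of KO over WT was -0.88, and it ran from -1.001 to -0.80 over 11 other settings, which used the same libraries. Las1l was chosen for this difference, so these values describe it and no test is given. In bulk RNA, fewer expressing cells and less RNA per cell cannot be told apart.

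The other measured rixosome genes did not all lie below WT. Nol9, the polynucleotide kinase that acts on the cut ends of ITS2, had 120.5 and 139.5 CPM in KO and 121.4 and 100.3 CPM in WT. Tex10, a scaffold subunit, had 69.18 and 115.7 CPM in KO and 57.3 and 62.87 CPM in WT. Wdr18, a WD-repeat subunit, had 19.65 and 8.269 CPM in KO and 22.5 and 16.47 CPM in WT. Both KO libraries were above both WT libraries for Tex10, while Nol9 and Wdr18 overlapped with WT, Wdr18 being low in KO replicate 2 alone. The log2 fold changes were 0.23 ± 0.25 for Nol9, 0.62 ± 0.36 for Tex10 and -0.48 ± 0.69 for Wdr18 (SE), each with an adjusted p of 0.9989 in edgeR's quasi-likelihood test. Without KO replicate 2 the value for Tex10 was 0.21 ± 0.25 and for Wdr18 0.02 ± 0.40. Of the exon bases of Tex10, 5.2% are shared with Invs on the opposite strand, and without a stated strand setting reads of such pairs cannot be told apart.

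**Figure D1:**
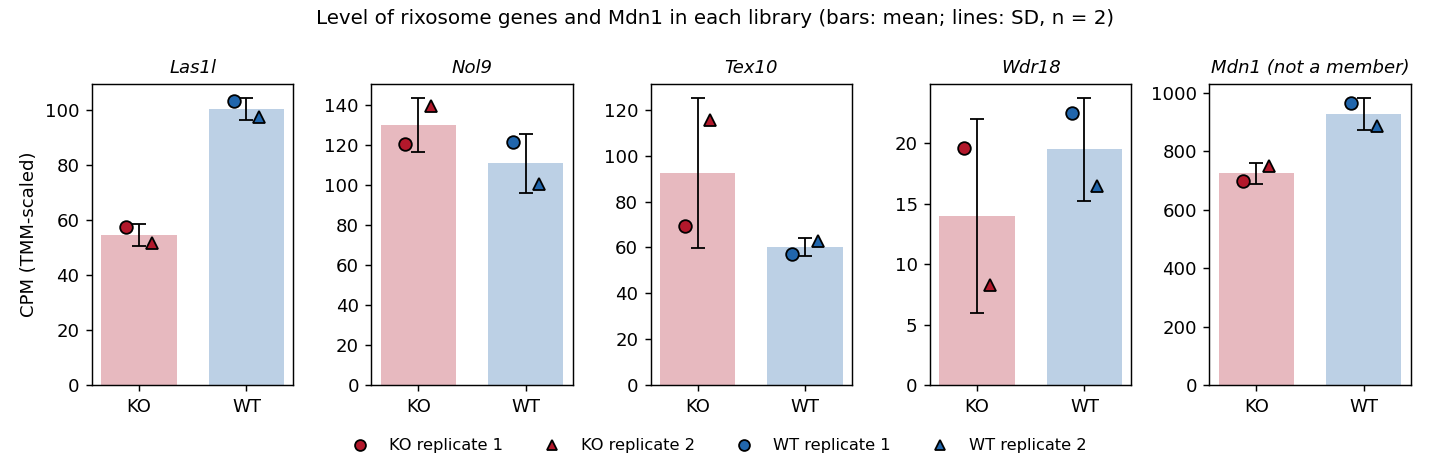
TMM-scaled CPM of the 4 measured rixosome genes and Mdn1 in each library, KO left of WT, with the mean and SD of the 2 libraries of each group. Las1l lay at 57.39 and 51.72 CPM in KO and 103.2 and 97.59 CPM in WT. Tex10 lay above both WT libraries in KO, and Nol9 and Wdr18 overlapped with WT. Las1l and Mdn1 were picked on this same contrast.

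Mdn1, a large ATPase that remodels pre-60S particles at the same step, is not a member. A rule picked it from the other pathway genes for non-overlapping KO and WT libraries and a low p in this same contrast. Its values therefore only describe it. It had 699.5 and 749.8 CPM in KO and 966.6 and 888.2 CPM in WT. Both KO libraries were below both WT libraries, with a log2 fold change of -0.36 ± 0.18 (SE) that did not pass the edgeR test (unadjusted p = 0.0979, adjusted p = 0.9989).

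Over all genes, edgeR called 0 of 15364 higher in KO (0.0%) and 0 lower (0.0%) at an adjusted p under 0.05, and 147 had an unadjusted p under 0.05 (0.957%). DESeq2 called 4 genes and limma voom 0. Of the 33 members other than Las1l, 0 were called and 0 had an unadjusted p under 0.05 with any of these tools. The smallest unadjusted p in edgeR was 0.0954, for Rrp12, and the adjusted p ran from 0.9989 to 0.9997. These p-values do not show that the members were equal in KO and WT. The SE beside each fold change rests on the spread of the same libraries, which may be technical.

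Both KO libraries lay below both WT libraries in 8 of 34 members, against 19.2% of tested genes, and above both in 9, against 13.2%. Among the 8841 tested genes with a mean CPM of 5 or more, a range that holds all 34 members, the shares were 14.6% below and 18.5% above. The balance turned with the scaling: total count scaling gave 8 members below (21.44% of tested genes) and 5 above (10.62%), and upper quartile scaling gave 9 below (21.34%) and 6 above (10.94%). The other 17 members overlapped or split, and in 4 of them (Nop56, Nop2, Utp4 and Rrp9) the KO libraries lay on opposite sides of both WT libraries. The share of such splits over all tested genes was not counted, so the 4 are only a description. KO replicate 1 was below both WT libraries in 8 members (30.9% of tested genes) and above both in 15 (31.4%). KO replicate 2 was below both in 17 (54.9%) and above both in 14 (34.2%). Among tested genes with a mean CPM of 5 or more, KO replicate 1 was below both in 30% and above both in 34.43%. For KO replicate 2 these shares were 42.48% and 47.14%.

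The members, like tested genes in general, lay nearer to WT in KO replicate 1 than in KO replicate 2. In KO replicate 1, 31 of 34 lay within 25% of the WT mean, against 54.5% of tested genes and 72.1% of those with a mean CPM of 5 or more, and apart from Las1l they ran from 77.56% for Rrp12 to 139.4% for Utp4. In KO replicate 2, 11 of 34 lay within 25%, against 18% of tested genes and 26.4% of those with a mean CPM of 5 or more, and they ran from 2.188% for Rrp9 to 192.5% for Tex10. Below 25% of the WT mean were 0 members in KO replicate 1, against 3.73% of tested genes. In KO replicate 2 there were 3 (Rrp9, Bop1 and Nat10), against 35.7% of tested genes and 12.8% of those with a mean CPM of 5 or more. Las1l alone had both KO libraries more than 1.5-fold below the WT mean (13.4% of tested genes), and it was chosen for being low. No member had both more than 1.5-fold above (3.0%).

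**Figure D2:**
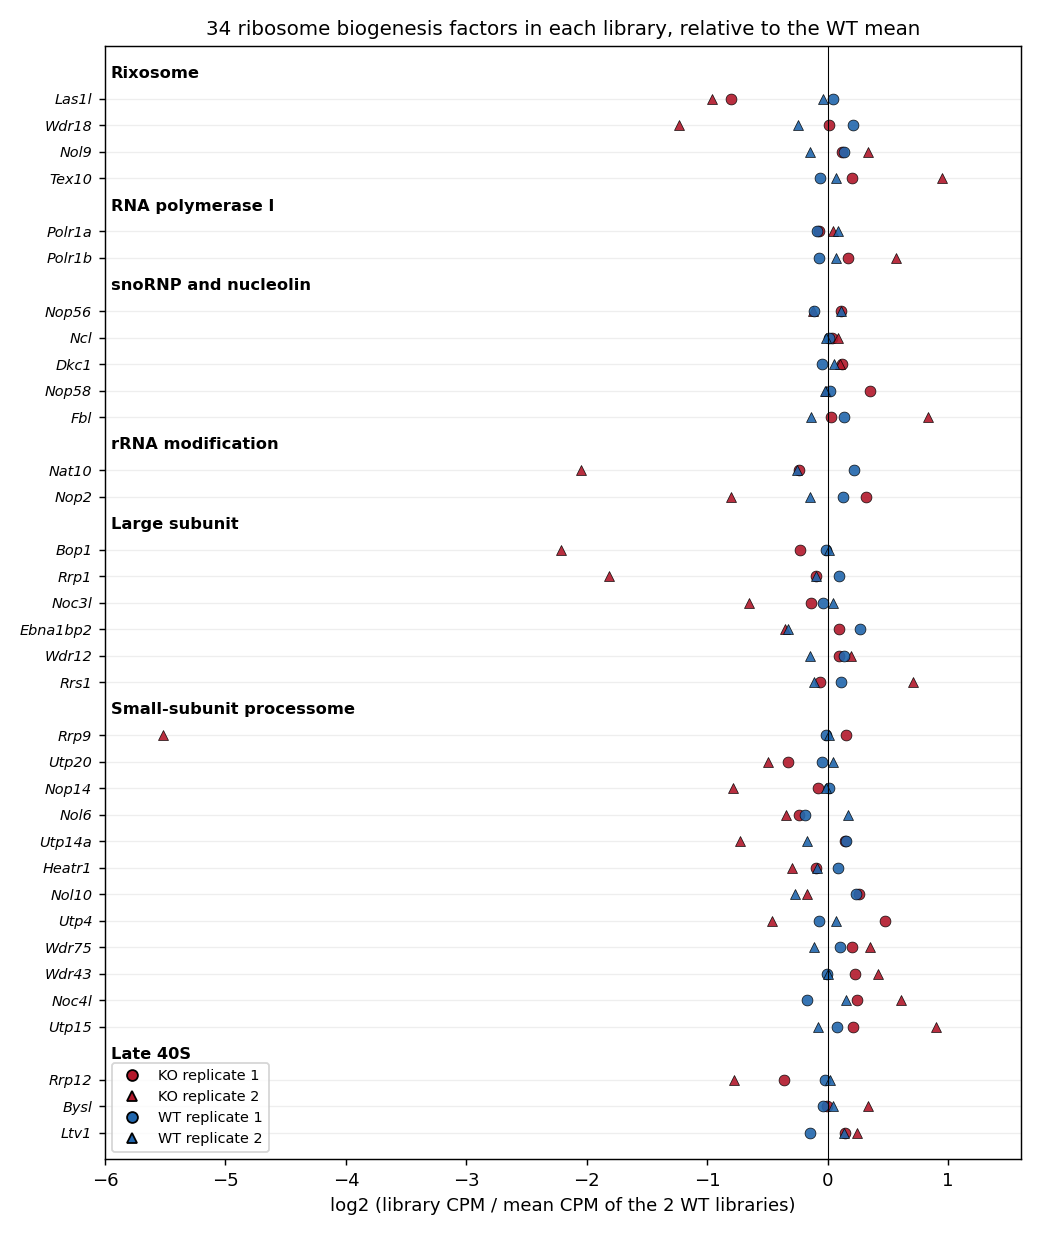
Log2 of the CPM in each library over the mean CPM of the 2 WT libraries for the 34 members by role, with KO in red, WT in blue, circles for replicate 1 and triangles for replicate 2. Las1l has both red points below the blue ones by the widest margin that both KO libraries share, and the points farthest to the left (Rrp9, Bop1, Nat10, Rrp1) are KO replicate 2.

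RNA polymerase I was represented by its largest subunits. Polr1a, the largest, had 188.7 and 204.7 CPM in KO and 187.1 and 210.9 CPM in WT, with both KO libraries inside the WT range. Polr1b, the next in size, had 65.12 and 85.76 CPM in KO and 55.07 and 60.58 CPM in WT. Both KO libraries of Polr1b were above both WT libraries, and its log2 fold change of 0.38 ± 0.32 (SE) was not called.

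The snoRNP core proteins and nucleolin followed. Ncl, which encodes nucleolin, an abundant nucleolar RNA-binding protein, had 3105 and 3213 CPM in KO and 3065 and 3005 CPM in WT. Dkc1, the pseudouridine synthase of H/ACA snoRNPs, had 209.1 and 206.1 CPM in KO and 186 and 199.1 CPM in WT. In both genes the KO libraries were above both WT libraries by small steps, with log2 fold changes of 0.06 ± 0.16 for Ncl and 0.11 ± 0.20 for Dkc1 (SE) that were negative under total count scaling (-0.07 for Ncl and -0.02 for Dkc1) and upper quartile scaling. Fbl, the methyltransferase of box C/D snoRNPs, had 110.4 and 193.2 CPM in KO and 118.7 and 98.23 CPM in WT. Nop56, a core protein of the same particles, had 580.5 and 493.5 CPM in KO and 495.3 and 578.1 CPM in WT. Nop58, its partner, had 595.4 and 460.6 CPM in KO and 472.1 and 459.5 CPM in WT. Fbl was high in KO replicate 2 alone, Nop58 was high in KO replicate 1 alone, and the KO libraries of Nop56 fell just outside the WT range on either side.

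The rRNA-modifying enzymes Nat10 and Nop2 were below both WT libraries in KO replicate 2 and not in KO replicate 1. Nat10, the acetyltransferase of 18S rRNA, had 67.29 and 19.2 CPM in KO and 92.42 and 66.58 CPM in WT. Nop2, a cytosine methyltransferase of 28S rRNA, had 145.3 and 66.94 CPM in KO and 127.6 and 105.5 CPM in WT. The log2 fold changes were -0.88 ± 0.65 for Nat10 and -0.14 ± 0.43 for Nop2 (SE), and without KO replicate 2 they were -0.24 ± 0.28 for Nat10 and 0.32 ± 0.21 for Nop2.

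Of 6 large-subunit factors, 2 had both KO libraries below both WT libraries (19.2% of tested genes) and 0 had both above (13.2%). Bop1, a subunit of the PeBoW complex of 28S maturation, had 26.3 and 6.663 CPM in KO and 30.63 and 31.2 CPM in WT. Noc3l, known in yeast as a partner of Noc2 on pre-60S particles, holds the 7mer-m8 match shown above and had 124.7 and 87.08 CPM in KO and 133.2 and 140.9 CPM in WT. Both genes were lowest in KO replicate 2. The log2 fold changes were -0.91 ± 0.76 for Bop1 and -0.37 ± 0.28 for Noc3l (SE), and without KO replicate 2 they were -0.23 ± 0.33 for Bop1 and -0.13 ± 0.19 for Noc3l.

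Rrp1, known in yeast for large-subunit processing, had 121.5 and 36.91 CPM in KO and 138.8 and 121.5 CPM in WT, so KO replicate 1 met the lower WT library and KO replicate 2 was far below. Rrs1, which takes part in loading the 5S ribonucleoprotein, had 70.55 and 120.2 CPM in KO and 79.4 and 67.86 CPM in WT, with KO replicate 2 above the other libraries. Wdr12, another PeBoW subunit, had 31.11 and 33.46 CPM in KO and 32.01 and 26.36 CPM in WT. Ebna1bp2, a pre-60S factor, had 92.78 and 67.81 CPM in KO and 104.7 and 68.97 CPM in WT. Wdr12 and Ebna1bp2 overlapped with WT, at log2 fold changes of 0.15 ± 0.42 and -0.11 ± 0.35 (SE).

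Of 12 measured members of the small-subunit processome, 4 had both KO libraries below both WT libraries (19.2% of tested genes, or 14.6% at a mean CPM of 5 or more) and 4 had both above (13.2%, or 18.5%). Utp20, a large scaffold protein, had 142.3 and 126.3 CPM in KO and 172.4 and 184.4 CPM in WT. It stood at 79.79% of the WT mean in KO replicate 1, where only Las1l and Rrp12 were lower, and its log2 fold change was -0.41 ± 0.22 (SE), or -0.32 ± 0.18 without KO replicate 2. Nop14, which binds NOC4L, had 208.9 and 127.9 CPM in KO and 222.5 and 218.6 CPM in WT. Nol6, of the UTP-C complex, had 232 and 215.9 CPM in KO and 239.9 and 308.4 CPM in WT. Heatr1, of the UTP-A complex that binds the start of the precursor, had 346.1 and 300.8 CPM in KO and 392.4 and 347.3 CPM in WT. For Heatr1, KO replicate 1 and the lower WT library nearly met, and for Nop14, which shares 5.3% of its exon bases with Gm15522 on the opposite strand, KO replicate 2 lay far from WT.

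Other UTP-A subunits were on the opposite side. Wdr43, which holds the 8mer match shown above, had 454.8 and 518.3 CPM in KO and 387.6 and 390.7 CPM in WT. Utp15 had 100.3 and 162.3 CPM in KO and 91.53 and 82.33 CPM in WT. Wdr75 had 133.3 and 148.3 CPM in KO and 124.6 and 107.5 CPM in WT. All 3 were above both WT libraries in both KO libraries, and for Wdr43 the WT libraries were close together. The log2 fold changes were 0.32 ± 0.19 for Wdr43, 0.59 ± 0.33 for Utp15 and 0.28 ± 0.24 for Wdr75 (SE), none of them called (unadjusted p = 0.145, 0.127 and 0.298, adjusted p = 0.9989 for each in edgeR). Utp4, also of UTP-A, had 132.7 and 69.08 CPM in KO and 90.42 and 100 CPM in WT, the highest library being KO replicate 1 and the lowest KO replicate 2.

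Noc4l, the partner of NOP14, had 33.24 and 42.78 CPM in KO and 25 and 31.23 CPM in WT, above both WT libraries in both KO libraries while Nop14 was below. Rrp9, a protein of the U3 snoRNP, had 1840 and 24 counts in KO and 1469 and 1578 counts in WT. Scaled, this was 29.28 and 0.5753 CPM in KO and 26.07 and 26.52 CPM in WT. Rrp9 was thus above WT in KO replicate 1 and near absent in KO replicate 2, and its log2 fold change of -0.82 ± 1.54 (SE) became 0.16 ± 0.33 without KO replicate 2. Utp14a had 50.8 and 27.68 CPM in KO and 51.07 and 40.86 CPM in WT and Nol10 had 96.21 and 71.14 CPM in KO and 94.34 and 66.36 CPM in WT; both are processome proteins and both overlapped with WT. Of the exon bases of Utp14a, 11.5% are shared with 9530027J09Rik on the opposite strand, and mouse also has a retrocopy, Utp14b, so its counts are uncertain.

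Among 3 measured late 40S factors, Rrp12, known in yeast for export of pre-ribosomes, had 97.56 and 73.37 CPM in KO and 124.1 and 127.5 CPM in WT. Both KO libraries were below both WT libraries, at 77.56% and 58.33% of the WT mean, and the log2 fold change was -0.56 ± 0.27 (SE), with an adjusted p of 0.9989 in edgeR. Ltv1, which leaves the pre-40S particle late, had 110.5 and 118.4 CPM in KO and 90.49 and 110.2 CPM in WT. Its KO libraries were above both WT libraries, with KO replicate 1 and WT replicate 2 almost equal. Bysl, the pre-40S protein bystin, had 56.91 and 72.15 CPM in KO and 55.49 and 58.8 CPM in WT, with KO replicate 2 the highest library. Of its exon bases, 9.4% are shared with Ccnd3 on the opposite strand.

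As a list the members had no common direction. Of 34 log2 fold changes 18 were positive and 16 negative. Positive values were found in 42.8% of tested genes, and in 4725 of the 8841 with a mean CPM of 5 or more. The median was 0.03, against -0.14 over all tested genes and 0.05 over those with a mean CPM of 5 or more. With upper quartile scaling 14 were positive and 20 negative (median -0.08), and with total count scaling 13 and 21 (median -0.09), so the sign of the median turned with the scaling. On the log2 scale relative to the WT mean, the median member was 0.09 in KO replicate 1 and, in KO replicate 2, -0.15. These medians were -0.02 and -0.42 for all tested genes, and 0.005 and 0.052 for those with a mean CPM of 5 or more. The summed level of the 34 was 8026 and 7685 CPM in KO and 7810 and 7718 CPM in WT, of which Ncl made up the largest part.

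**Figure D3:**
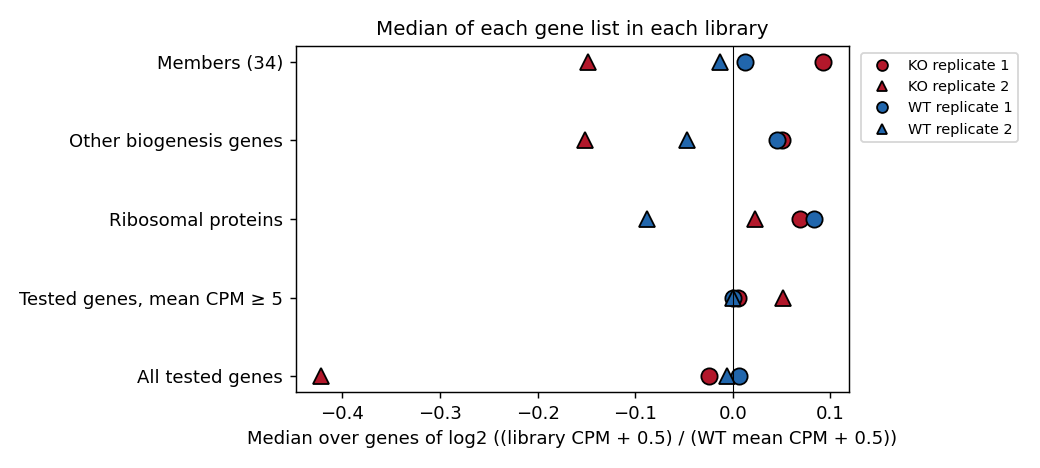
Median over genes of log2((CPM + 0.5) / (WT mean CPM + 0.5)) in each library for the members and for comparison lists, with KO in red and WT in blue. The members stood at 0.09 and -0.15 in KO and 0.01 and -0.01 in WT, and all tested genes stood at -0.42 in KO replicate 2. Tested genes with a mean CPM of 5 or more stood at 0.052 in that library.

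Of 125 other genes of the pathway, 106 were tested. With edgeR, 0 of them were called, 0 had an unadjusted p under 0.05, and 50 log2 fold changes were positive and 56 were negative, at a median of -0.035. Both KO libraries were below both WT libraries in 18 (16.98%) and above in 22 (20.75%), against 19.2% and 13.2% of tested genes and 14.6% and 18.5% of those with a mean CPM of 5 or more. Besides Mdn1 the rule named on the lower side Lsg1, a GTPase of late 60S maturation, with 108.3 and 52.49 CPM in KO and 119.7 and 110.9 CPM in WT. It also named Nop53, which in yeast brings the exosome to ITS2, with 77.23 and 12.51 CPM in KO and 89.97 and 97.71 CPM in WT. On the higher side it named Rpf2, the partner of RRS1 in loading the 5S ribonucleoprotein, with 36.39 and 84.37 CPM in KO and 28.09 and 23.48 CPM in WT. Tsr3, which modifies 18S rRNA, had 5.282 and 18.67 CPM in KO and 1.615 and 2.605 CPM in WT, and Nmd3, the export adaptor of the 60S subunit, had 151.3 and 193.5 CPM in KO and 113.8 and 124.4 CPM in WT. In each of these 5 genes KO replicate 2 lay farther from WT than KO replicate 1, and none was called. The rule picked them and Mdn1 for no overlap of KO and WT, so their values only describe them.

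The 69 ribosomal protein genes, whose products these factors assemble, had 39 positive and 30 negative log2 fold changes (median 0.06), and 0 were called. Myc had 784.9 and 975.8 CPM in KO and 751.8 and 825.5 CPM in WT, a log2 fold change of 0.16 ± 0.20 (SE). Of 6 proliferation markers, 3 had both KO libraries below both WT libraries (19.2% of tested genes) and 1 had both above (13.2%). Of their log2 fold changes, 5 were negative and 1 positive. Their summed level was 164.7 and 163.3 CPM in KO and 164.3 and 189.4 CPM in WT, most of it from Pcna. Mki67, found in cycling cells, had 30.93 and 31.28 CPM in KO and 53.86 and 69.1 CPM in WT. Both KO libraries of Mki67 were below both WT libraries (edgeR unadjusted p = 0.0374, adjusted p = 0.9989). Pcna, the replication clamp, had 125.6 and 131.1 CPM in KO and 99.87 and 109.8 CPM in WT, above both. Their part in the level of Las1l was not tested.

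Levels were compared between members per length, as RPKM (CPM per kilobase of merged exon). Mean levels over the 4 libraries ran from 304 RPKM for Ncl to 2.571 RPKM for Wdr12. Ncl had 304.8 and 315.4 RPKM in KO and 300.8 and 295 RPKM in WT, Nop56 had 141.6 and 120.4 RPKM in KO and 120.8 and 141 RPKM in WT, and Wdr43 had 95.25 and 108.5 RPKM in KO and 81.16 and 81.83 RPKM in WT. The ranges of these 3 did not overlap with each other. Dkc1, Nol6, Ltv1, Nop58 and Heatr1, at ranks 5 to 9, had means between 48.55 and 44.28 RPKM and overlapped over libraries. Las1l ranked 29 of 34 with 7.048 and 6.352 RPKM in KO and 12.67 and 11.98 RPKM in WT. Merged exons join all annotated transcripts of a gene. With the length of the longest principal transcript, a choice made after seeing the data, Las1l ranked 17, Nop58 ranked 2 in place of 8 and Fbl ranked 5 in place of 13.

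**Figure D4:**
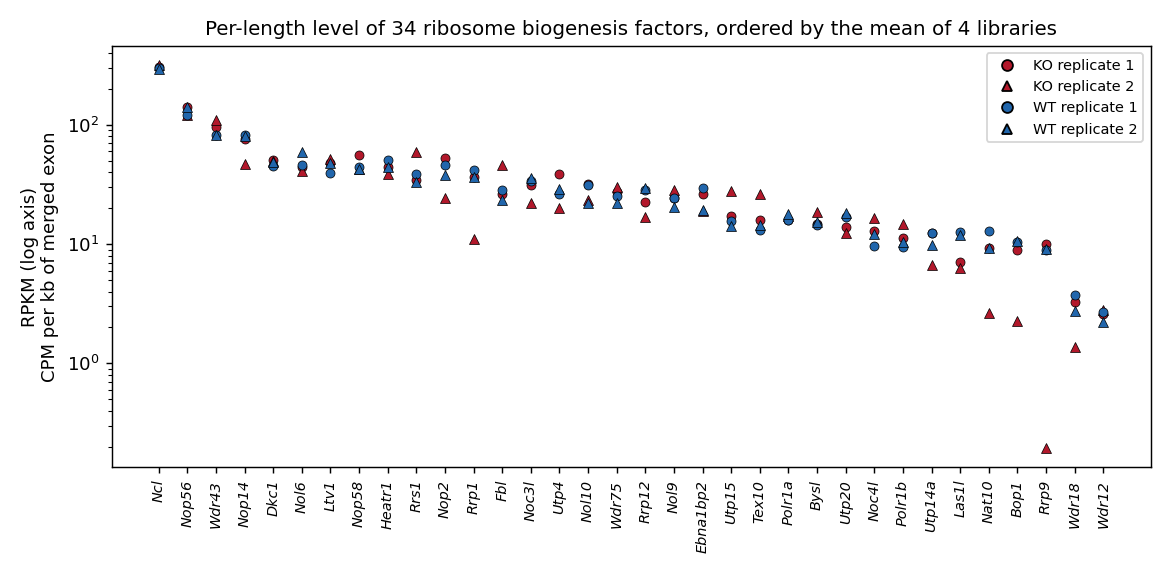
RPKM on a log axis for the 34 members in each library, ordered by the mean of the 4 libraries, with KO in red, WT in blue, circles for replicate 1 and triangles for replicate 2. Means span 304 RPKM for Ncl to 2.571 RPKM for Wdr12, and Rrp9 in KO replicate 2 is the lowest point.

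Promoters were searched for the E-box CACGTG, which MYC and related factors bind, because MYC is a known driver of the pathway. The motif reads the same on both strands. RefSeq windows (GRCm38.p6) of 300 bases at the start site matched 29 of 34 members, and 6 of them (20.7%) held the motif, against 10.9% of 10321 tested genes and 8.1% of all 27025 genes with a window. The matches are shown with the motif in capitals so that the bases around it can be compared.
Tex10: gcgacctgcggtCACGTGagcgcggcgagg
Nop2: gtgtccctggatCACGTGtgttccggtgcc
Utp4: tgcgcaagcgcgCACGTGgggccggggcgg
Wdr43: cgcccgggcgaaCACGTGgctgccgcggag
Utp20: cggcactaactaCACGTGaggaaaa
Ltv1: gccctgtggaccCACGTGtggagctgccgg

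The windows lie at chr4:48473414-48473713 (minus strand) for Tex10, chr6:125131633-125131932 (plus) for Nop2 and chr8:106893390-106893689 (plus) for Utp4. Those of Wdr43, Utp20 and Ltv1 lie at chr17:71615965-71616264 (plus), chr10:88826765-88827064 (minus) and chr10:13193088-13193387 (minus). In KO these 6 genes lay on different sides: Tex10, Wdr43 and Ltv1 above both WT libraries, Utp20 below both, and Nop2 and Utp4 above in KO replicate 1 and below in KO replicate 2. The Las1l window (chrX:95956854-95957153, minus strand) did not hold these letters, which says nothing about binding there.

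The low values of KO replicate 2 were set beside the base composition of the transcripts. Rrp9, at 2.188% of the WT mean in that library, had 59.8% G+C, the highest of the 34, and Bop1, at 21.55%, had 58.2%. Nat10, at 24.15%, had 52.5%. Nol6, with 57.1%, stood at 78.76%, and Fbl, with 56.7%, stood at 178.2%. Over the 34 members Spearman's rho of G+C with the log2 ratio to WT was -0.343 in KO replicate 2 and -0.308 in KO replicate 1, a weak correlation across genes of the same libraries. Over 8321 tested genes with a mean CPM of 5 or more it was near 0, with -0.032 for KO replicate 2 and -0.059 for KO replicate 1. The part of G+C content in these levels was not tested.

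With KO replicate 2 as the lone KO library, edgeR called 12 of the 33 members. Tex10, Fbl, Rrs1 and Utp15 were the 4 called higher (12.4% of 16392 tested genes), and Nat10, Nop2, Bop1, Rrp1, Noc3l, Rrp9, Nop14 and Rrp12 were the 8 called lower (22.5%). An unadjusted p under 0.05 was found for 15 members, against 46.9% of tested genes. With KO replicate 1 as the lone KO library, 0 members and 0 of 16904 genes were called, and 2 members had an unadjusted p under 0.05, against 2.8% of tested genes. In each fit the lone library was assumed to vary like the WT pair.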

How the data were processed

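Raw read counts per gene were deposited by the authors, 1 file per library. TopHat2 2.02, HTSeq and the builds NCBIM37 and mm9 are named in the submitters' processing notes. Annotation release, strand setting and overlap rule: not given in the sources used here. Reads outside any feature made up 57.85% and 61.52% of all counted reads in KO and 61.4% and 57.59% in WT, and all 5 summary rows stayed out of library sizes and tests. Symbols and exon lengths came from GENCODE M21 (GRCm38), matched by gene identifier to 86.9% of rows.

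KO was tested against WT with edgeR 4.0.16 in R 4.3.3 (filterByExpr, TMM, quasi-likelihood test, genotype as the term), with Benjamini-Hochberg adjusted p-values over 15364 genes and calls under 0.05. The SE is the log2 fold change divided by the square root of F. List medians by library used a pseudocount of 0.5 CPM. Alternatives were DESeq2 1.42.0, limma 3.58.1 voom, other scalings and filters, a replicate block, and each library left out. The fit was tested on simulated data. Named genes were all members, Mir205, Myc, the cell type markers and, of the other pathway genes with a mean CPM of 5 or more and no overlap of groups, the 3 of lowest p per direction. Members and lists were chosen with earlier results of these data known. Floors cover counting error alone, because amplified reads are not independent molecules.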

Additional observations from a re-analysis of the deposited data

How the results depend on the processing

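The 0 genes called by edgeR became 4 with DESeq2 and 0 to 5724 with 1 library left out (5 without either WT library, 5724 without KO replicate 1). The 0 called members became 0 to 12, with 12 without KO replicate 1. The median log2 fold change of the members, 0.03, ran from -0.152 to 0.097 on leaving out 1 library, the lowest without KO replicate 1 and the highest without KO replicate 2. Members below WT, 8, ran from 8 to 18. There were 13 without WT replicate 2 (34.17% of tested genes) and 18 without KO replicate 1 (54.4%). Members above WT, 9, ran from 11 to 15. There were 14 without WT replicate 1 (21.71% of tested genes), 14 without KO replicate 1 (32.77%) and 15 without KO replicate 2 (31.55%). They numbered 5 with total count scaling (10.62%). Fewer libraries leave fewer values to overlap; the cause of the other shifts was not tested. With the replicate block, 0 genes and 0 members were called, 79 genes had an unadjusted p under 0.05, and the member median was 0.005. Nothing but the number in the labels links same-numbered libraries. The correlation of their deviations was 0.034 over 8841 genes. With 2 libraries per genotype, this value cannot show whether they shared a batch. Of 751 pairs of a setting and 1 of 69 named genes (the members without Las1l, the 6 other pathway genes, Myc and the markers), 663 kept their sign and side of the threshold, 58 changed sign without a call, and 30 crossed the threshold, all of them without KO replicate 1.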
